A study of Homo sapiens with 4 samples.

Results

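The MHC class I and peptide loading genes described here are 9 of 58233 gene identifiers counted in pancreatic cancer cells, and they were taken by symbol, mapped from the Ensembl identifier of the raw counts. They comprise the heavy chain genes HLA-B, HLA-C and HLA-E, the light chain gene B2M, the peptide transporter genes TAP1 and TAP2, the tapasin gene TAPBP and the immunoproteasome genes PSMB8 and PSMB9. All 9 were found, and all 9 reached the minimum of 1 CPM (counts scaled to a common library size) in at least 1 of the 2 libraries of every comparison. The selection rule read the symbols and no measured value, but the members were chosen with earlier results of these data known.

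The established human pancreatic cancer cell lines MIA PaCa-2 and PANC-1, both labelled wild type, were treated for 24 h with phosphate-buffered saline (PBS) or with cannabichromene (CBC), a non-psychotropic phytocannabinoid of hemp. The study's methods give the CBC dose as 35 µM for MIA PaCa-2 and 30 µM for PANC-1, so dose and line cannot be told apart when the lines are compared. Poly(A) RNA of each condition was sequenced in 1 library, 4 libraries in all, so a difference inside one line could not be checked against replicates. The labels name PBS as the control treatment, whereas the methods speak of a vehicle control and of CBC dissolved in acetonitrile. Whether the control cells received that solvent is not given in the sources used here.

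The libraries held 21742775 to 27903667 counts, and the 3 counts that a count of 0 allows correspond to 0.110 to 0.135 CPM. KRT8, KRT18, KRT19 and VIM were abundant in all 4 libraries, while EPCAM had 0 or 1 count and CDH1 had 0 counts in the MIA PaCa-2 libraries. KRT7 had 2 counts in MIA PaCa-2 PBS, 52 in MIA PaCa-2 CBC, 49 in PANC-1 PBS and 58 in PANC-1 CBC. Of the markers of other cell types, PTPRC, CD3E, PECAM1 and DCN were at 0 in all 4 libraries, but others were counted. The endothelial marker CDH5 had 49, 7, 0 and 1 counts in the same order of libraries. The leukocyte marker CD14 had 123, 18, 32 and 2 counts, and the fibroblast marker PDGFRB had 0, 15, 54 and 18. The 5 leukocyte markers together reached 6.66 CPM in MIA PaCa-2 PBS and 0.849 CPM in MIA PaCa-2 CBC, and 1.41 and 0.0732 CPM in the matching PANC-1 libraries. The 4 fibroblast markers together reached 368 CPM in MIA PaCa-2 PBS and 96.1 CPM in MIA PaCa-2 CBC, and 136 and 47.1 CPM in the PANC-1 libraries, almost all of it from 1 collagen gene in each line, COL1A2 in MIA PaCa-2 and COL1A1 in PANC-1. The part of these markers in the results below was not tested.

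Class I molecules present short peptides from proteins made inside the cell to CD8+ T cells and natural killer cells. A heavy chain pairs with the light chain beta-2 microglobulin, the transporter formed by TAP1 and TAP2 carries peptides into the endoplasmic reticulum (ER), and tapasin holds the empty molecule at the transporter until a peptide binds. The immunoproteasome subunits PSMB8 and PSMB9 replace the constitutive subunits PSMB5 and PSMB6 and change which peptides are cut. Interferons raise most of these genes through IRF and other factors, and NF-kB and the NLRC5 complex also act at class I heavy chain and B2M promoters. Reduced class I expression is a known feature of many pancreatic cancers.

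Of the 9 genes, 8 lie on chromosome 6 in the MHC region and B2M lies on chromosome 15 (GRCh38, GENCODE 44, all protein coding). HLA-E spans chr6:30489509-30494194 on the plus strand, HLA-C chr6:31268749-31272130 on the minus strand and HLA-B chr6:31353872-31367067 on the minus strand. TAP2 (chr6:32821833-32838739, minus), PSMB8 (chr6:32840717-32844679, minus), TAP1 (chr6:32845209-32853816, minus) and PSMB9 (chr6:32844136-32859851, plus) stand next to each other in the class II region. TAPBP spans chr6:33299694-33314284 on the minus strand and B2M chr15:44711358-44718851 on the plus strand.

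Promoter windows from RefSeq on GRCh38.p14, 250 bases before to 50 bases after the transcription start, covered 8 of the 9 genes in 10 windows, because TAP1 and PSMB8 have 2 starts each. HLA-E was not in the table. The windows are shown because HLA-B and HLA-C carry matches to interferon and NF-kB motifs in a shared order. An ISRE core of one spacing or the other also recurs in 5 of the other 8 windows. Any part of these motifs in the differences with CBC was not tested. Both strands were searched for GAAANNGAA, the core of the interferon-stimulated response element (ISRE), for TTCNNNGAA (GAS), for CCAAT, for the NF-kB motif and for TGACGTCA (CRE). A core with a spacing shorter by 1 base, GAANNGAAA, was searched as well. Positions count from the first transcribed base as 0.

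Whole windows of HLA-B (chr6:31357130-31357429, minus strand), HLA-C (chr6:31272043-31272342, minus strand) and B2M (chr15:44711267-44711566, plus strand) follow, 5′ to 3′. In HLA-B and HLA-C the capitals mark, in order from the 5′ end, CCAAT read on the other strand (HLA-C only), the NF-kB motif, the shorter-spaced ISRE core read on the other strand, and 3 CCAAT matches on either strand. In B2M the capitals mark only the 2 overlapping GAAANNGAA cores.
HLA-B: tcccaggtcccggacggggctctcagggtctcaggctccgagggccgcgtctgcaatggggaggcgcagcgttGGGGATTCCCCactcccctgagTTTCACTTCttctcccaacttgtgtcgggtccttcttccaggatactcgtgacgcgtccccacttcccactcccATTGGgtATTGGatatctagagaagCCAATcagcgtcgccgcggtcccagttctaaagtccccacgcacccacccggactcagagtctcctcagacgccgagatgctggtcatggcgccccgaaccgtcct
HLA-C: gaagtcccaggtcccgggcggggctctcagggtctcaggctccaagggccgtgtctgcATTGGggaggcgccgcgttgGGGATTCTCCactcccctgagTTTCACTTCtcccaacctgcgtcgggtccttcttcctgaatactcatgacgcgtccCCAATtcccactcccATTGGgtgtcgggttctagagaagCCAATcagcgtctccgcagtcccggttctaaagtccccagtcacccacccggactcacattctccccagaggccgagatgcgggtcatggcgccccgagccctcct
B2M: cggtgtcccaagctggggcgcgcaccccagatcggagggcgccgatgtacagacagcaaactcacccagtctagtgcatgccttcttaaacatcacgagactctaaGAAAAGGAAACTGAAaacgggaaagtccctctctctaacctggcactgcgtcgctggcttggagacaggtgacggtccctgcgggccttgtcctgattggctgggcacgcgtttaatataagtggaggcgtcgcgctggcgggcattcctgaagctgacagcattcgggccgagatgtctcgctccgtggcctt

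Stretches of 60 bases around the ISRE cores of the transporter, tapasin and immunoproteasome genes are shown in the same way, all read on the minus strand of chromosome 6, with only the ISRE cores of either spacing in capitals. They are the outer TAP1 start (chr6:32853801-32853860), TAP2 (chr6:32838766-32838825), TAPBP (chr6:33314062-33314121) and the PSMB8 start at which the core lies on the start itself (chr6:32844014-32844073).
TAP1: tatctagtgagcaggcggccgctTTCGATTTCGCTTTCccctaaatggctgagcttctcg
TAP2: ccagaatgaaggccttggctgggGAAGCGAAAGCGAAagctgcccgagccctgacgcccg
TAPBP: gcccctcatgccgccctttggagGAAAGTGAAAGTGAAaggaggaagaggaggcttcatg
PSMB8: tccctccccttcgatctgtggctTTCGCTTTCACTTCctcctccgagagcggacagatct

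The HLA-B and HLA-C windows held 269 identical bases of 300 in a global alignment. An ISRE core of either spacing was present in 7 of the 10 windows, belonging to 7 genes (HLA-B, HLA-C, B2M, TAP1, TAP2, TAPBP and PSMB8), and in 14.5% of 35116 RefSeq windows of the same length. GAAANNGAA alone was in 5 of the 10 windows (B2M, TAP1, TAP2, TAPBP and PSMB8), none of them of HLA-B or HLA-C, and in 8.11% of all windows. GAANNGAAA, added after the sequences were seen, was in 4 of the 10 (HLA-B, HLA-C, TAP2 and PSMB8) and in 7.66% of all windows. NF-kB matches, present in 11.3% of all windows, were found in HLA-B, HLA-C, B2M, TAPBP and the outer TAP1 window. The GAS letters, in 7.66% of all windows, were found at the other start of TAP1 and at 1 PSMB8 start, CCAAT (34.6% of all windows) in 5 of the 10 windows, and the CRE letters (1.85%) in none. The PSMB9 window held no ISRE core, and its start lies 488 bases from the outer TAP1 start on the opposite strand. These matches describe letters in the reference and say nothing of whether a factor was bound.

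**Figure D1:**
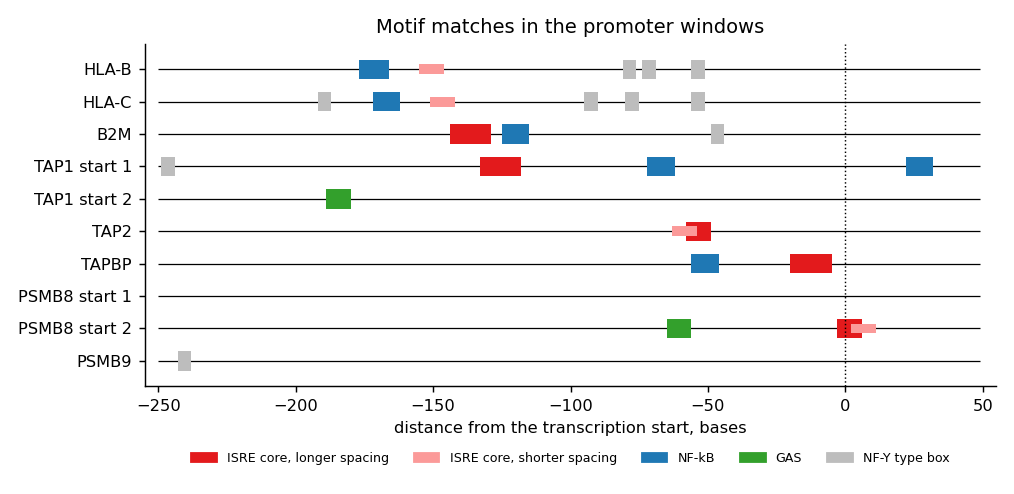
Motif matches in the 10 promoter windows of 8 genes. The x axis is the distance in bases from the transcription start (dotted line), each row is a window, and boxes mark matches on either strand, with the NF-Y type box standing for CCAAT. An ISRE core of either spacing (red or pink) appears in 7 of the 10 windows, and HLA-B and HLA-C carry it next to an NF-kB match.

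The first comparison asked how the class I genes stood after CBC in each line. In MIA PaCa-2 the 3 heavy chains and TAP1 were higher in the CBC library, TAP2 and TAPBP were lower, and HLA-B and HLA-C passed the study's limit of a 2-fold change (log2 fold change over 1). In PANC-1 the same 4 genes were higher by less than 2-fold, and TAP2 was again lower. HLA-B was 3.62-fold higher with CBC in MIA PaCa-2 and 1.69-fold higher in PANC-1, the largest difference of the 9 genes in each line. Over both lines, HLA-B was the member that passed edgeR's quasi-likelihood test.

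The count past 2-fold was 2 of 9 members higher and 0 lower in MIA PaCa-2, where 11.5% of 14001 genes were higher and 8.97% lower. In PANC-1 it was 0 higher and 0 lower, where 7.71% of 14091 genes were higher and 7.03% lower. The median log2 fold change of the members was 0.46 in MIA PaCa-2, beside -0.01 over all genes, and 0.16 in PANC-1, beside 0.02 over all genes. The 95% interval of a fold change covers counting error only (Clopper-Pearson interval of the ratio of 2 counts), not the variation between cultures. By that interval 5 members were above 0 and 2 below 0 in MIA PaCa-2, and 4 above and 3 below in PANC-1. Over all genes compared, 37.3% lay above 0 and 39.1% below 0 in MIA PaCa-2, and 37.3% and 35.9% in PANC-1. In bulk RNA, fewer cells of a type and less RNA per cell cannot be told apart.

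**Figure D2:**
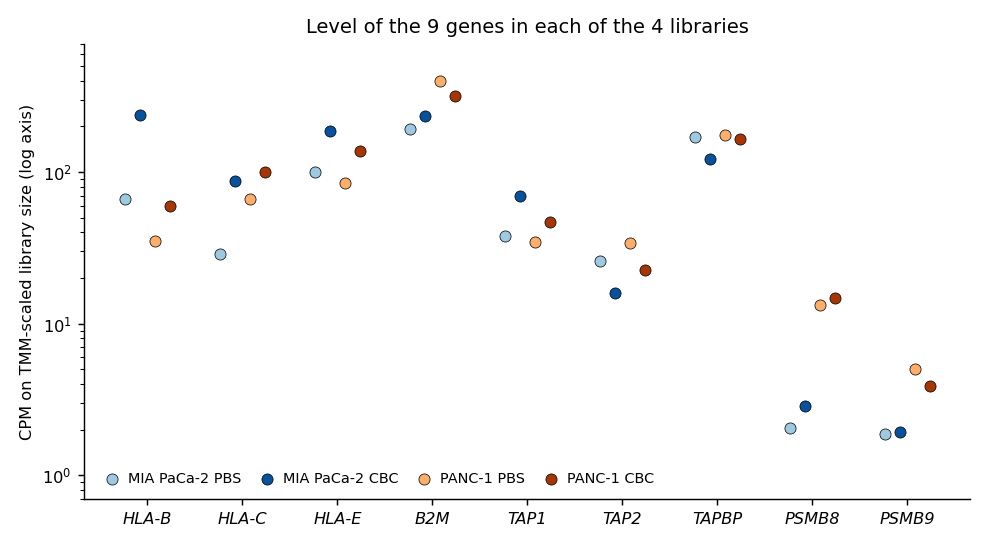
Level of the 9 genes in each of the 4 libraries, as CPM on TMM-scaled library sizes on a log axis, 1 point per library and therefore without error bars. HLA-B ranges from 35.1 to 240 CPM and stands highest in MIA PaCa-2 CBC, while PSMB8 and PSMB9 are the lowest of the 9 genes in every library.

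HLA-B and HLA-C encode classical heavy chains, which show peptides to CD8+ T cells. HLA-B was counted at 66.2 CPM in MIA PaCa-2 PBS, 240 CPM in MIA PaCa-2 CBC, 35.1 CPM in PANC-1 PBS and 59.5 CPM in PANC-1 CBC. The MIA PaCa-2 CBC library therefore stood far above the other 3, and the PBS library of PANC-1 was the lowest. The log2 fold change was 1.85 (95% counting interval 1.77 to 1.94) in MIA PaCa-2 and 0.76 (0.64 to 0.89) in PANC-1. Of the genes compared, 96.0% had a smaller log2 fold change than HLA-B in MIA PaCa-2 and 87.6% in PANC-1.

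HLA-C was counted at 29.0 CPM in MIA PaCa-2 PBS, 87.6 CPM in MIA PaCa-2 CBC, 66.3 CPM in PANC-1 PBS and 100.4 CPM in PANC-1 CBC. Unlike HLA-B, it was lowest in the PBS library of MIA PaCa-2 and highest in PANC-1 CBC. Its log2 fold change was 1.59 (1.47 to 1.72) in MIA PaCa-2 and 0.60 (0.51 to 0.69) in PANC-1. The PANC-1 change minus the MIA PaCa-2 change, on the log2 scale, was -1.0 (-1.15 to -0.84) for HLA-C and -1.09 (-1.24 to -0.95) for HLA-B. With 1 library per condition that difference between the lines was not tested.

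HLA-E encodes a non-classical heavy chain that displays leader peptides of other class I chains to the CD94/NKG2 receptors of natural killer cells. It was counted at 100.7 CPM in MIA PaCa-2 PBS, 186 CPM in MIA PaCa-2 CBC, 84.2 CPM in PANC-1 PBS and 139 CPM in PANC-1 CBC. Both CBC libraries were above both PBS libraries. The log2 fold change was 0.88 (0.81 to 0.96) in MIA PaCa-2 and 0.72 (0.64 to 0.80) in PANC-1, the smallest gap between the lines of the 3 heavy chains.

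The HLA genes are highly polymorphic, and reads were aligned to a single reference genome, so that a line's own alleles and its expression cannot be told apart when the lines are compared. Within the reference, 0 of 1437 windows of 100 bases, the study's read length, of the HLA-B transcript occurred in a transcript of another gene. Of HLA-E, 15 of 2449 windows were shared with HLA-G. In GENCODE 44 the HLA-B span also overlaps DHFRP2 and MIR6891, which had 0 counts in all 4 libraries, and a pseudogene on the opposite strand (ENSG00000271581) with 0 to 2 counts.

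B2M encodes the light chain shared by all class I molecules. It was counted at 194 CPM in MIA PaCa-2 PBS, 235 CPM in MIA PaCa-2 CBC, 400.4 CPM in PANC-1 PBS and 319 CPM in PANC-1 CBC. Both PANC-1 libraries were above both MIA PaCa-2 libraries. The log2 fold change with CBC was 0.28 (0.22 to 0.34) in MIA PaCa-2 and -0.33 (-0.37 to -0.28) in PANC-1, on opposite sides of 0.

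Measured per kilobase of the MANE Select transcript, B2M stood highest of the 9 genes in all 4 libraries, from 205 to 425 CPM per kilobase. The 3 heavy chains summed to 101 CPM per kilobase in MIA PaCa-2 PBS, 286 in MIA PaCa-2 CBC, 98.9 in PANC-1 PBS and 158 in PANC-1 CBC. The ratio of B2M to these heavy chains was thus 2.02 in MIA PaCa-2 PBS and 0.873 in MIA PaCa-2 CBC, and 4.29 and 2.14 in the matching PANC-1 libraries. The ratio was lower with CBC in both lines, and in MIA PaCa-2 CBC it was below 1. HLA-B made up 42.5% of the 3 heavy chains per length in MIA PaCa-2 PBS and 54.6% in MIA PaCa-2 CBC, against 23.1% and 24.5% in PANC-1. HLA-E went from 39.0% to 25.5% in MIA PaCa-2 and from 33.4% to 34.4% in PANC-1, and HLA-C from 18.5% to 19.9% and from 43.5% to 41.1%. These ratios were chosen after the values were seen.

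TAP1 and TAP2 encode the partner chains of the peptide transporter, and their differences with CBC had opposite signs in both lines. TAP1 was counted at 37.7 CPM in MIA PaCa-2 PBS, 69.1 CPM in MIA PaCa-2 CBC, 34.6 CPM in PANC-1 PBS and 46.6 CPM in PANC-1 CBC. Both CBC libraries lay above both PBS libraries, and the log2 fold change was 0.87 (0.76 to 0.996) in MIA PaCa-2 and 0.43 (0.30 to 0.56) in PANC-1. TAP2 was counted at 25.9, 16.05, 34.0 and 22.8 CPM in the same order of libraries. Both CBC libraries lay below both PBS libraries, and the log2 fold change was -0.69 (-0.88 to -0.51) in MIA PaCa-2 and -0.58 (-0.73 to -0.42) in PANC-1.

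The ratio of TAP1 to TAP2 per length was 3.05 in MIA PaCa-2 PBS and 9.05 in MIA PaCa-2 CBC, and 2.13 and 4.30 in the matching PANC-1 libraries. TAP2 shares 34.7% of the 100-base windows of its transcript with a readthrough gene (ENSG00000250264), which had 0 counts in all 4 libraries, so its level relative to TAP1 depends on how shared reads were counted. TAP1 shares no such window with another gene, but 672 of its exonic bases lie opposite the antisense gene PSMB8-AS1, which had 1 to 4 counts per library.

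TAPBP encodes tapasin, which bridges the empty class I molecule and the transporter. It was counted at 170 CPM in MIA PaCa-2 PBS, 122 CPM in MIA PaCa-2 CBC, 175 CPM in PANC-1 PBS and 166 CPM in PANC-1 CBC. The MIA PaCa-2 CBC library was the lowest and the other 3 lay close together. The log2 fold change was -0.48 (-0.55 to -0.41) in MIA PaCa-2 and -0.08 (-0.14 to -0.02) in PANC-1.

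PSMB8 and PSMB9 encode immunoproteasome subunits and had the fewest counts of the 9 genes. PSMB8 had 46 counts (2.07 CPM) in MIA PaCa-2 PBS, 71 counts (2.87 CPM) in MIA PaCa-2 CBC, 303 counts (13.3 CPM) in PANC-1 PBS and 407 counts (14.9 CPM) in PANC-1 CBC. PSMB9 had 42 counts (1.89 CPM), 48 counts (1.94 CPM), 115 counts (5.06 CPM) and 106 counts (3.88 CPM) in the same order. For both genes the PANC-1 libraries stood above the MIA PaCa-2 libraries, whatever the treatment. No difference with CBC was detectable at this depth for PSMB8, whose log2 fold change was 0.46 (-0.08 to 1.04) in MIA PaCa-2 and 0.16 (-0.06 to 0.38) in PANC-1. The same was true of PSMB9, with 0.04 (-0.59 to 0.67) and -0.38 (-0.78 to 0.01).

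The share of each immunoproteasome subunit in the sum with its constitutive counterpart, per length, was compared next, a measure chosen after the values were seen. PSMB8 made up 1.36% (0.995 to 1.81) of PSMB8 and PSMB5 in MIA PaCa-2 PBS and 2.50% (1.95 to 3.14) in MIA PaCa-2 CBC, and 9.74% (8.71 to 10.8) and 13.6% (12.4 to 14.9) in the PANC-1 libraries. These 95% Clopper-Pearson intervals did not overlap between PBS and CBC in either line. PSMB5 itself had a change of -0.42 on the log2 scale in MIA PaCa-2 and -0.38 in PANC-1. PSMB9 made up 1.13% and 1.40% of PSMB9 and PSMB6 in MIA PaCa-2 and 3.33% and 3.15% in PANC-1, with overlapping intervals within each line. PSMB10, the remaining immunoproteasome subunit and no member, made up 1.16% and 1.20% of PSMB10 and PSMB7 in MIA PaCa-2 and 0.616% and 0.503% in PANC-1. In GENCODE 44, PSMB8 and PSMB9 overlap by 139 exonic bases on opposite strands, and PSMB8-AS1 lies opposite 602 exonic bases of PSMB8 and shares 174 with PSMB9 on its strand. The library kit keeps strand, but which strand HTSeq was told to count is not given in the sources used here.

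**Figure D3:**
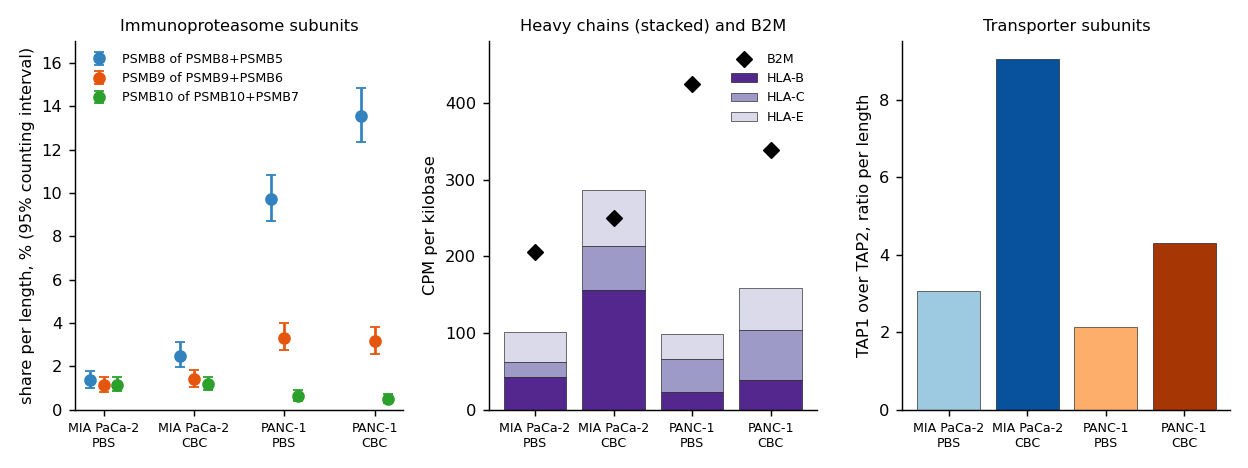
Balance among class I genes in the 4 libraries. Left, the share in percent of each immunoproteasome subunit in the sum with the subunit it replaces, per length, with 95% counting intervals. Middle, CPM per kilobase of the 3 heavy chains (stacked bars) and B2M (diamonds). Right, the ratio of TAP1 to TAP2 per length. The heavy chain bar passes the B2M diamond only in MIA PaCa-2 CBC, and the TAP1 to TAP2 ratio is higher with CBC in both lines, 9.05 against 3.05 and 4.30 against 2.13.

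The second comparison pooled the lines and set the CBC libraries against the PBS libraries in edgeR's quasi-likelihood test, in which the lines serve as the only replicates and the cell line is a block with 1 residual degree of freedom. HLA-B rose by a log2 fold change of 1.32 (SE 0.30, Benjamini-Hochberg adjusted p = 0.0490), higher in both lines, as 1 of the 370 genes of 16381 (2.26%) that rose. With DESeq2's size factors in the same edgeR test its adjusted p was 0.0626, and in DESeq2's Wald test it was 0.00910. HLA-E had 0.81 (SE 0.20, edgeR adjusted p = 0.0669) and HLA-C 1.10 (SE 0.29, edgeR adjusted p = 0.0765), which did not pass, whereas both passed in DESeq2's Wald test with adjusted p of 0.00617 and 0.0375. TAP1 had 0.66 (edgeR adjusted p = 0.169) and TAP2 had -0.63 (edgeR adjusted p = 0.212). Without adjustment, 5 of the 9 members had p under 0.05 in the edgeR test (the 3 heavy chains, TAP1 and TAP2), beside 3428 of 16381 genes (20.9%). For TAPBP, B2M, PSMB8 and PSMB9 the edgeR adjusted p lay between 0.496 and 0.975. The median log2 fold change of the members was 0.31, beside 0.02 over all genes.

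**Figure D4:**
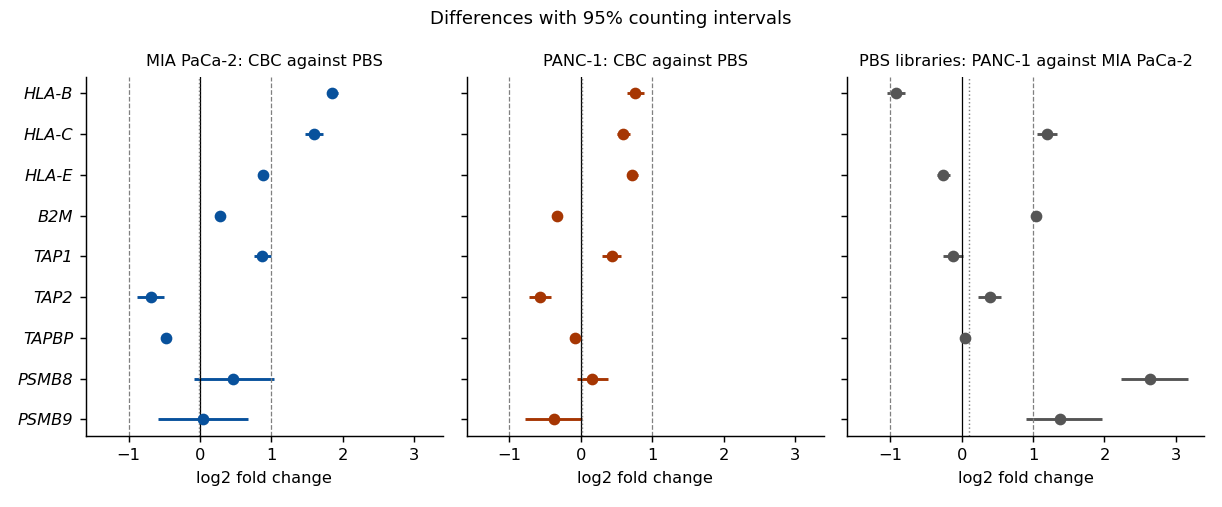
Log2 differences of the 9 genes with 95% counting intervals (bars), for CBC against PBS in MIA PaCa-2, CBC against PBS in PANC-1, and PANC-1 against MIA PaCa-2 in the PBS libraries. Dashed lines mark 2-fold and the dotted line the median of all genes. HLA-B and HLA-C lie past 2-fold in MIA PaCa-2 and at 0.76 and 0.60 in PANC-1, B2M lies on opposite sides of 0, and PSMB8 has the largest difference between the lines.

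The third comparison asked how the lines differed under PBS. In the PBS libraries, PSMB8, PSMB9, HLA-C and B2M were more than 2-fold higher in PANC-1, HLA-B was 0.530 times its MIA PaCa-2 level, and TAP1 and TAPBP were at 0.918 and 1.03 times theirs. That made 4 of 9 members higher and 0 lower, where 24.0% of 14805 genes were higher in PANC-1 and 18.0% lower. PSMB8 was 6.23-fold higher in PANC-1, a log2 difference of 2.64 (2.24 to 3.17), and PSMB9 2.61-fold, 1.38 (0.90 to 1.97). HLA-C differed by 1.19 (1.06 to 1.33) and B2M by 1.05 (1.0 to 1.10) on the log2 scale, and HLA-B by -0.91 (-1.04 to -0.79). With library totals as the only scaling, the median of all genes shifted by -0.13, B2M came to 0.92, under the 2-fold limit, and HLA-B to -1.05, past it. HLA-E differed by -0.26 (-0.35 to -0.17) and TAP2 by 0.39 (0.23 to 0.55), while TAP1 at -0.12 (-0.27 to 0.02) and TAPBP at 0.04 (-0.02 to 0.11) had intervals that included 0.

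Ordered by CPM per kilobase, the PBS library of MIA PaCa-2 had B2M first, then TAPBP, HLA-B, HLA-E, HLA-C, TAP1, TAP2, PSMB9 and PSMB8. There the counting intervals of HLA-B (43.1) and HLA-E (39.5) overlapped, as did those of PSMB9 (1.86) and PSMB8 (1.84). In the PBS library of PANC-1 the order was B2M, TAPBP, HLA-C, HLA-E, HLA-B, TAP1, PSMB8, TAP2 and PSMB9, with overlap between TAP1 (12.9) and PSMB8 (11.9) and between TAP2 (6.03) and PSMB9 (4.97). HLA-B and HLA-C thus exchanged places between the lines. After CBC, HLA-B was second in MIA PaCa-2 at 156 CPM per kilobase and stood behind HLA-C, HLA-E and TAPBP in PANC-1 at 38.8.

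Over both treatments, with treatment as a block in edgeR's quasi-likelihood test, PSMB8 was higher in PANC-1 by 2.47 on the log2 scale (SE 0.38, adjusted p = 0.00150) and B2M by 0.68 (SE 0.22, adjusted p = 0.0335). HLA-B was lower in PANC-1, with -1.53 (SE 0.30, edgeR adjusted p = 0.00455). These are 2 members higher, where 25.1% of 16381 genes were called higher, and 1 lower, where 21.7% were called lower, so the share of members called higher was near that of all genes. PSMB9 had 1.15 (edgeR adjusted p = 0.0701) and HLA-C 0.63 (edgeR adjusted p = 0.105). Without the treatment block the PSMB8 call was the one of the 3 that passed, with an edgeR adjusted p of 0.0150.

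The other genes of the pathway were followed as lists. Among factors and interferon signalling genes that act upstream of class I genes, 3 of 22 were past 2-fold higher in MIA PaCa-2 and 0 in PANC-1, with medians of 0.04 and -0.02. The share higher in MIA PaCa-2 was near the 11.5% of all genes. IRF1, an activator of class I promoters, was counted at 18.3 CPM in MIA PaCa-2 PBS, 49.97 CPM in MIA PaCa-2 CBC, 10.8 CPM in PANC-1 PBS and 16.2 CPM in PANC-1 CBC. Its log2 fold change was 1.44 (1.28 to 1.61) in MIA PaCa-2 and 0.58 (0.36 to 0.82) in PANC-1, and in edgeR's test over both lines the adjusted p was 0.110. RELA, a subunit of NF-kB, had 1.13 in MIA PaCa-2 and 0.15 in PANC-1. NLRC5, the class I transactivator, had 88 counts in MIA PaCa-2 PBS and 212 in MIA PaCa-2 CBC, a log2 fold change of 1.10 (0.75 to 1.49), and 90 and 87 counts in PANC-1, -0.31 (-0.76 to 0.13). IFNGR1, a chain of the interferon-gamma receptor, had 0.76 and 0.69. In edgeR's test over both lines 0 of 22 passed after adjustment, 4 had p under 0.05 without it (IFNGR1, IRF1, RELA and RFXAP), beside 20.9% of all genes, and in DESeq2's Wald test 0 passed and 3 did so without adjustment.

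Among genes of class I surface turnover and inhibitory control, 2 of 7 were past 2-fold higher in MIA PaCa-2 and 1 of 8 in PANC-1, with medians of 0.72 and 0.23, beside 11.5% and 7.71% of all genes higher past 2-fold. SOCS1, an inhibitor of interferon signalling, falls outside the rule for named genes because of its low level and was singled out after its values were seen. It had 28 counts in MIA PaCa-2 PBS, 387 in MIA PaCa-2 CBC, 43 in PANC-1 PBS and 164 in PANC-1 CBC. It rose over both lines by 2.64 on the log2 scale (SE 0.56, edgeR adjusted p = 0.0423), higher in both lines. SOCS3, a related inhibitor, had 0.88 in MIA PaCa-2 and 0.52 in PANC-1 (edgeR adjusted p = 0.122 over both lines). SUSD6, part of a complex that directs class I molecules to degradation, had 1.34 in MIA PaCa-2 and -0.13 in PANC-1. MARCHF4, a ubiquitin ligase that removes class I molecules from the surface, had 5 and 17 counts in MIA PaCa-2, under the filter, and 1950 and 1948 counts in PANC-1.

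The median change of genes for folding, loading and trimming in the ER was 0.61 in MIA PaCa-2, with 7 of 9 intervals above 0, and of -0.13 in PANC-1, with 5 of 9 intervals below 0, beside 37.3% of all genes above 0 in MIA PaCa-2 and 35.9% below 0 in PANC-1. PDIA3, the oxidoreductase of the loading complex, had 1.02 (0.97 to 1.06) in MIA PaCa-2 and -0.52 (-0.56 to -0.48) in PANC-1. The lectin chaperones CALR and CANX, named after their values were seen, had 0.64 and 0.61 in MIA PaCa-2 and -0.91 and -0.13 in PANC-1. ERAP1, which trims peptides, had 0.86 and 0.17, and BCAP31, an ER export factor, had 0.52 and 0.01. Past 2-fold, 1 of 9 (PDIA3) was higher in MIA PaCa-2 and 0 in PANC-1. In the tests over both lines 0 of 9 passed and 0 had p under 0.05 without adjustment, with edgeR and with DESeq2.

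Constitutive proteasome subunits and immunoproteasome partners had medians of -0.26 in MIA PaCa-2 and -0.28 in PANC-1, with 0 of 8 past 2-fold in either line. The activator subunits PSME1 and PSME2 had -0.49 and -0.24 in MIA PaCa-2 and -0.34 and -0.67 in PANC-1. PSMB6 had -0.28 and -0.30, and PSMB7 0.04 and 0.14, in MIA PaCa-2 and PANC-1. In the tests over both lines 0 of 8 passed and 0 had p under 0.05 without adjustment, with edgeR and with DESeq2.

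Other class I and class I-like heavy chains differed in another direction, with medians of -0.09 in MIA PaCa-2 and -0.44 in PANC-1 over the 6 of 8 genes compared in each line. HFE, a class I-like regulator of iron uptake, was counted at 50.3 CPM in MIA PaCa-2 PBS, 16.1 CPM in MIA PaCa-2 CBC, 33.2 CPM in PANC-1 PBS and 23.3 CPM in PANC-1 CBC. Its log2 fold change was -1.64 (-1.81 to -1.48) in MIA PaCa-2 and -0.51 (-0.67 to -0.36) in PANC-1. MICB, a stress-induced ligand of the NKG2D receptor, had -0.03 in MIA PaCa-2 and -0.76 in PANC-1, and FCGRT, the neonatal Fc receptor chain that also pairs with B2M, had -0.18 and 0.43. In edgeR's test over both lines 0 of 7 passed and 1, HFE, had p under 0.05 without adjustment, as in DESeq2's Wald test on the 5 it kept.

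The class II genes, together with the invariant chain gene CD74 and the class II transactivator CIITA, were barely counted. Of these 12 genes, HLA-DMA reached 1 CPM in at least 1 library of each line, HLA-DMB in 1 library of MIA PaCa-2 alone, and HLA-DRA had 0 counts in all 4 libraries. HLA-DMA, which helps load class II molecules, had 20 and 42 counts in MIA PaCa-2 and 30 and 27 counts in PANC-1. BRD2, a bromodomain gene in the class II region of chromosome 6, had a change of 0.72 on the log2 scale in MIA PaCa-2 and 0.13 in PANC-1.

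**Figure D5:**
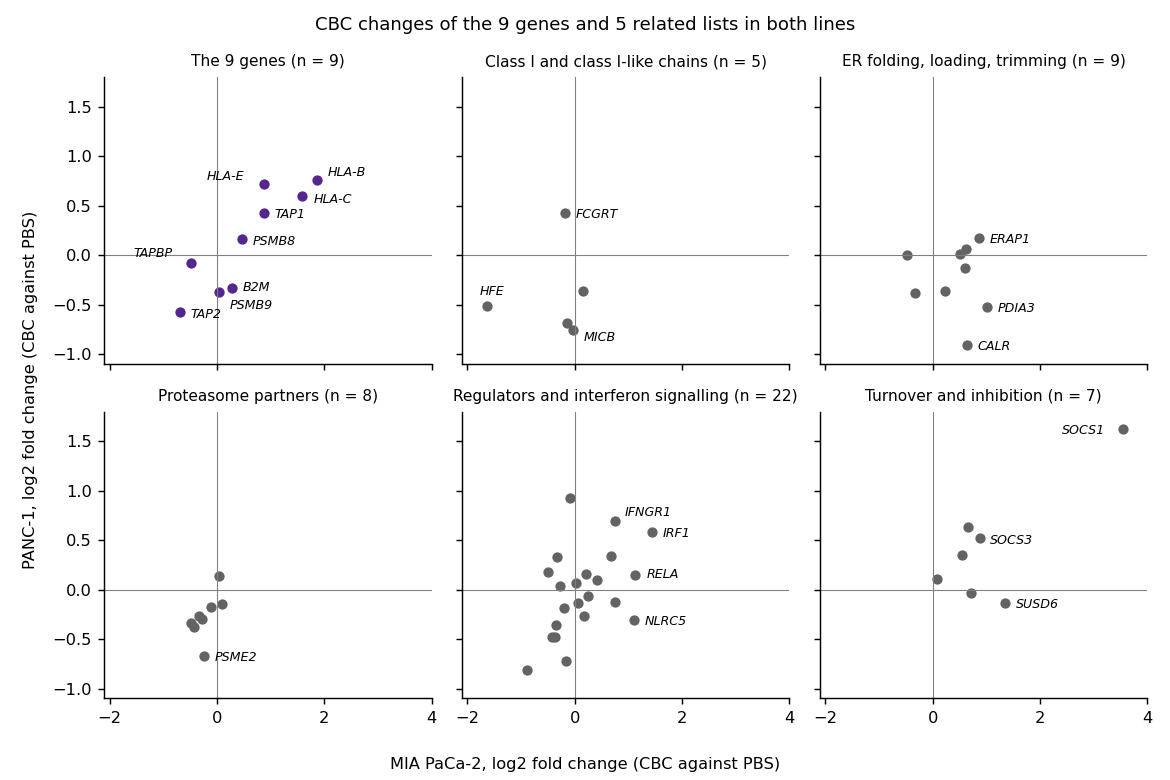
Log2 fold change with CBC in MIA PaCa-2 (x axis) against PANC-1 (y axis) for the 9 genes and 5 related lists, 1 point per gene that reached 1 CPM in both comparisons. The heavy chains and TAP1 lie to the upper right, the ER genes PDIA3 and CALR lie to the lower right, and SOCS1 lies farthest out at 3.55 and 1.62.

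The genes whose 3 values (CBC change in each line and PBS difference between the lines) lay nearest to the medians of the 9 members, by Euclidean distance among 9708 protein-coding genes, were TRIT1 (distance 0.044), TRIM65 (0.066), RNF139 (0.068), GON4L (0.070) and FAM174C (0.073). The medians summarise genes that differed in opposite directions, and none of the 5 is a member. TRIT1 had 0.44 in MIA PaCa-2, 0.17 in PANC-1 and 0.35 between the PBS libraries.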

How the data were processed

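Per the labels and the study's methods, poly(A) RNA was sequenced in paired reads with a directional kit, trimmed with cutadapt 2.7, aligned to GRCh38 with STAR and counted per Ensembl gene with HTSeq, in 1 library per condition. The version of STAR and the counting mode are not given in the sources used here. The authors deposited raw counts per gene for 58233 identifiers, of which 57392 matched a symbol. Each library further has a signal file deposited by the authors, CPM on TMM-scaled library sizes, which matched the CPM computed from the counts with a largest relative difference of 6.84e-09.

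All values were computed from the deposited counts. Log2 fold changes were taken with edgeR 4.0.16 (R 4.3.3) after TMM scaling of the 4 libraries, with a prior count of 2, and a gene was compared where either library reached 1 CPM. Intervals at the 95% level came from scipy 1.17.1 and cover counting error only. No test within a line was possible. Over both lines, edgeR's quasi-likelihood test (16381 genes kept by its own filter) was fitted with cell line and treatment as blocks, and was tested on simulated data first. For CBC, its p-values rest on how far the CBC change differed between the lines, since the block removes each line's own level. For the difference between the lines, they rest on how far that difference varied between the treatments. The fit gave 23.0% as the coefficient of biological variation common to all genes. The pairing comes from the cell lines, whose libraries deviated from the treatment means with a correlation of 0.92 across genes. DESeq2 1.42.0 was an alternative. Positions came from GENCODE 44, another release than the authors used, and promoters from RefSeq.

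Named genes were all members, the counterparts PSMB5, PSMB6, PSMB7 and PSMB10, the regulators IRF1 and NLRC5, in each list the 3 genes with the largest absolute mean CBC change among those with a mean of at least 10 CPM, genes that overlap a member, and the 5 genes of nearest pattern. The members and lists were chosen with earlier results of these data known. Exceptions are named as such, and some results are not reported here.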

Additional observations from a re-analysis of the deposited data

Results flagged for a closer look

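B2M, the class I light chain, had a log2 fold change with CBC above 0 in MIA PaCa-2 and below 0 in PANC-1, with counting intervals on opposite sides of 0, so that the PANC-1 change minus the MIA PaCa-2 change was -0.61 (-0.68 to -0.54). Among the list genes named, the same was seen for the ER genes CALR (-1.54), PDIA3 (-1.54) and CANX (-0.74), and for MARCHF4 (-1.88), which had only 5 and 17 counts in MIA PaCa-2. With 1 library per condition, none of these differences between the lines was tested.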

How the results depend on the processing

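The counts of members past 2-fold stayed within 1.5 times under another prior count, other scalings, other filters on low values and the deposited CPM. With library totals the median of the 9 members moved from 0.39 to 0.26 for the PBS libraries, from 0.46 to 0.52 for CBC in MIA PaCa-2 and from 0.16 to 0.23 in PANC-1. Of 135 single values, 126 moved by less than their counting error, 9 moved by more and 0 called values changed sign. Library totals moved the PBS difference of TAPBP from 0.04 to -0.09. The members called with CBC over both lines numbered 1 (HLA-B), and came to 3 with DESeq2's Wald test and 3 without the filter on low counts (HLA-B, HLA-C and HLA-E each time), 1 with library totals (edgeR adjusted p = 0.0427 for HLA-B) and 0 with DESeq2's size factors. Without the replicate block, that is without the pairing by cell line, 0 members and 0 of all genes were called by edgeR, and 354 genes had p under 0.05 before adjustment. Over all genes the calls with CBC in either direction numbered 771, and 1371 with DESeq2's Wald test and 2063 without the filter. For the difference between the lines the members called numbered 3, and came to 5 without the filter on low counts and 1 without the block. No replicate could be left out, since each condition has 1 library. PSMB8, PSMB9 and NLRC5 had under 100 counts in at least 1 library, as did SOCS1, PSMB10, HLA-DMA and MARCHF4. That limits what their intervals and tests can show.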
